A study of Mus musculus with 32 samples.

Results

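The genes that drive entry into mitosis and guard its progress were followed in mouse epidermis through 10 members, namely Cdk1, Ccnb1, Ccnb2, Aurka, Aurkb, Plk1, Bub1, Bub1b, Ttk and Cdc20. They were chosen by name for their known role, with earlier results of these data known, and matched by symbol to the identifiers of the count tables. All 10 were found among the 55401 identifiers counted, and all 10 were among the 15546 genes that reached 1 cpm (reads of a gene scaled to the size of the library) in at least 1 of the 32 mice and were tested. Each library held the dorsal epidermis of 1 mouse of the SKH-1/SV129/BL6/J background, aged 10 to 14 weeks. UV mice received a single dose of 120 mJ/cm2 on the back, mostly UVB, and were sampled 24 h later, whereas Control mice were handled alike without exposure. The labels give a time of 24 h for every UV mouse and 0 h for every Control mouse, so exposure and labelled time cannot be told apart. Wild-type (WT) mice, +/+ in the labels, were compared with littermates labelled -/- or KO, which are deficient in PPARbeta, the nuclear receptor encoded by Ppard. Each combination of genotype, sex and exposure held 4 mice, which gave 8 groups. The sources used here do not say which part of Ppard the allele lacks or how the KO mice were derived.

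Mitosis starts when cyclin B, made from Ccnb1 and Ccnb2, activates the kinase CDK1, with Aurora A (Aurka) and Polo-like kinase 1 (Plk1) promoting that step and the building of the spindle. Aurora B (Aurkb), BUB1, BUBR1 (Bub1b) and MPS1 (Ttk) act at kinetochores, where the spindle checkpoint holds back CDC20, the activator of the ubiquitin ligase APC/C that ends mitosis. Their transcripts peak late in the cell cycle, so that in whole epidermis, where dividing cells lie mainly in the basal layer and hair follicles, the level depends on how many cells cycle as well as on the RNA in each. In bulk libraries, fewer cycling cells and less RNA per cell cannot be told apart. Late cell cycle genes are known for promoters with CCAAT boxes, bound by NF-Y, and a cell cycle gene homology region (CHR), bound by the MuvB core with either B-MYB or the repressive DREAM proteins. UV is known to stop the cell cycle through p53 and its target Cdkn1a, the p21 inhibitor of cyclin-dependent kinases.

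Stretches upstream of the transcription start are given for 6 members, to show those of the letters searched that lie within them. The sequences come from RefSeq (GRCm38.p6), read 5′ to 3′ on the strand of the gene. Each starts 150 bases upstream of the RefSeq start and stops before the outermost annotated start. Capitals mark CCAAT (or ATTGG on the other strand), CHR letters (TTTGAA or TTCGAA or TTTAAA or TTCAAA, on either strand) and E2F letters (TTGGCGC or TTCGCGC, on either strand). The positions are chr10:69352939-69353062 on the reverse strand for Cdk1, chr13:100786571-100786636 on the reverse strand for Ccnb1, chr9:70421555-70421704 on the reverse strand for Ccnb2, chr7:122159285-122159434 on the forward strand for Plk1, chr9:83834539-83834688 on the forward strand for Ttk and chr4:118437353-118437493 on the reverse strand for Cdc20.
Cdk1: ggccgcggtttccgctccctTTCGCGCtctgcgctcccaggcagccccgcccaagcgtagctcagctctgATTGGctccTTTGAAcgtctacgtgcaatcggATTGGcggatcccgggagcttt
Ccnb1: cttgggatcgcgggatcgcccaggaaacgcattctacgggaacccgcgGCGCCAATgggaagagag
Ccnb2: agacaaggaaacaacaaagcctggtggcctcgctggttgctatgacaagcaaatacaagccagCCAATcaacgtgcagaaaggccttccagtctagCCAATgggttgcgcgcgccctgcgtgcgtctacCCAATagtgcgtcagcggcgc
Plk1: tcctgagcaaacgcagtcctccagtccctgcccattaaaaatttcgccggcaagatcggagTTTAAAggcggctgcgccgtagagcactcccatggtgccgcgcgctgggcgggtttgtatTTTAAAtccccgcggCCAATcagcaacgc
Ttk: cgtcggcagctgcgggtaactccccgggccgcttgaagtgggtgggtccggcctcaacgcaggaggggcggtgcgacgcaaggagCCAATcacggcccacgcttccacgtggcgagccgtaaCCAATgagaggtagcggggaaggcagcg
Cdc20: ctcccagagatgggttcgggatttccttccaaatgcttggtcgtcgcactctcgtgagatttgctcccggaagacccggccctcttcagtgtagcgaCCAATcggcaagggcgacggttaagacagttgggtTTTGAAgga

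The genes not shown lie at chr2:172356190-172370535 (Aurka, reverse strand), chr2:127801122-127831865 (Bub1, reverse strand), chr2:118598211-118641591 (Bub1b, forward strand) and chr11:69045647-69051664 (Aurkb, forward strand) of GRCm38. A promoter was at hand for 9 of the 10 members, all except Aurkb. In the window from 250 bases upstream to 50 bases downstream of the start, CHR letters were found in 9 of 9 members and in 28.8% of 32851 promoters of the same length. CCAAT was found in 9 of 9 members and in 37.4% of all promoters, and at least 2 copies stood in 7 of 9 members and in 11.7% of all promoters. Ccnb2 carried 3 CCAAT copies, starting 87, 54 and 21 bases upstream of its start. E2F letters were found only in Cdk1 and Ccnb1 among the 9, and in 3.89% of all promoters. In Ccnb1 the E2F letters overlapped a CCAAT copy. In Ttk, the only CHR letters (TTCAAA) lay 7 bases past the start and are therefore not in the stretch shown. Other matches also lay outside the stretches shown. In Ccnb1 these were CHR letters 42 and CCAAT 67 bases upstream, and in Ccnb2 CHR letters 167 bases upstream and 4 past the start. In Cdk1 they were CCAAT 208, E2F letters 178 and CHR letters 15 bases upstream. In Plk1 CHR letters lay 30 bases past the start, and in Cdc20 CCAAT lay 8 bases upstream. With the upstream 250 bases alone, CHR letters remained in 6 of 9 members and in 26.2% of all promoters. These matches describe letters in a window, not binding.

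The libraries held 22919428 to 40653581 reads assigned to genes, with a median of 27600228.5, and the members had between 52 and 1348 reads each in every mouse. The 2 libraries of a pair within a group always differed by more than sampling noise, so no library was counted as a duplicate. Ppard was counted at 70.3 to 88.9 cpm in unexposed KO mice and 87.3 to 104.9 cpm in unexposed WT mice, and at 175 to 239 cpm against 252 to 326 cpm after UV. Transcript of the gene was thus still counted in the KO libraries, and counts over the whole gene do not check the labels. Markers of the basal and suprabasal layers were present in every library, with sums of at least 5321 cpm and 4604 cpm, but their balance moved with exposure. The 5 suprabasal markers (Krt1, Krt10, Ivl, Lor and Flg) had group medians of 62390 to 84898 cpm without UV and 7179 to 20934 cpm after UV, and the 6 basal markers 8522 to 11513 cpm and 20201 to 26262 cpm. The 8 T cell markers had medians of 121 to 176 cpm and 34.7 to 65.6 cpm, and the 5 Langerhans and antigen-presenting cell markers 485 to 822 cpm and 263 to 522 cpm. The part of these shifts in the UV changes of the members was not tested. KO female UV mouse 54F stood apart in dermal fibroblast markers, with 1982 cpm summed over 6 genes against 6.0 to 9.48 cpm in the other 3 mice of its group and at most 92.2 cpm in any unexposed mouse.

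Per kilobase of merged exons, Cdc20 had the highest mean level over the 32 mice, at 11.3 cpm per kb, and Bub1 the lowest, at 1.37 cpm per kb. Cdc20 was highest and Bub1 lowest in each genotype and exposure, and Ccnb2 was second in each, at 7.34 cpm per kb in unexposed and 3.32 in exposed WT mice. The place of Ttk depended on exposure: without UV it came next after Ccnb2, at 5.05 cpm per kb in WT and 5.13 in KO mice, and after UV its mean was above that of Bub1 alone, at 1.85 and 2.12 cpm per kb, close to Ccnb1 at 1.86 and 2.15. Cdc20 shares exon sequence with Elovl1, a fatty acid elongase gene on the opposite strand counted at 722 cpm. Whether the counting used strand is not given in the sources used here, so its values are less certain than the others. The deviations of Cdc20 and Elovl1 from their group means had Pearson's r of -0.42 over the 32 mice, and those of Cdc20 with the mean of the other 9 members had r of 0.92.

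**Figure D1:**
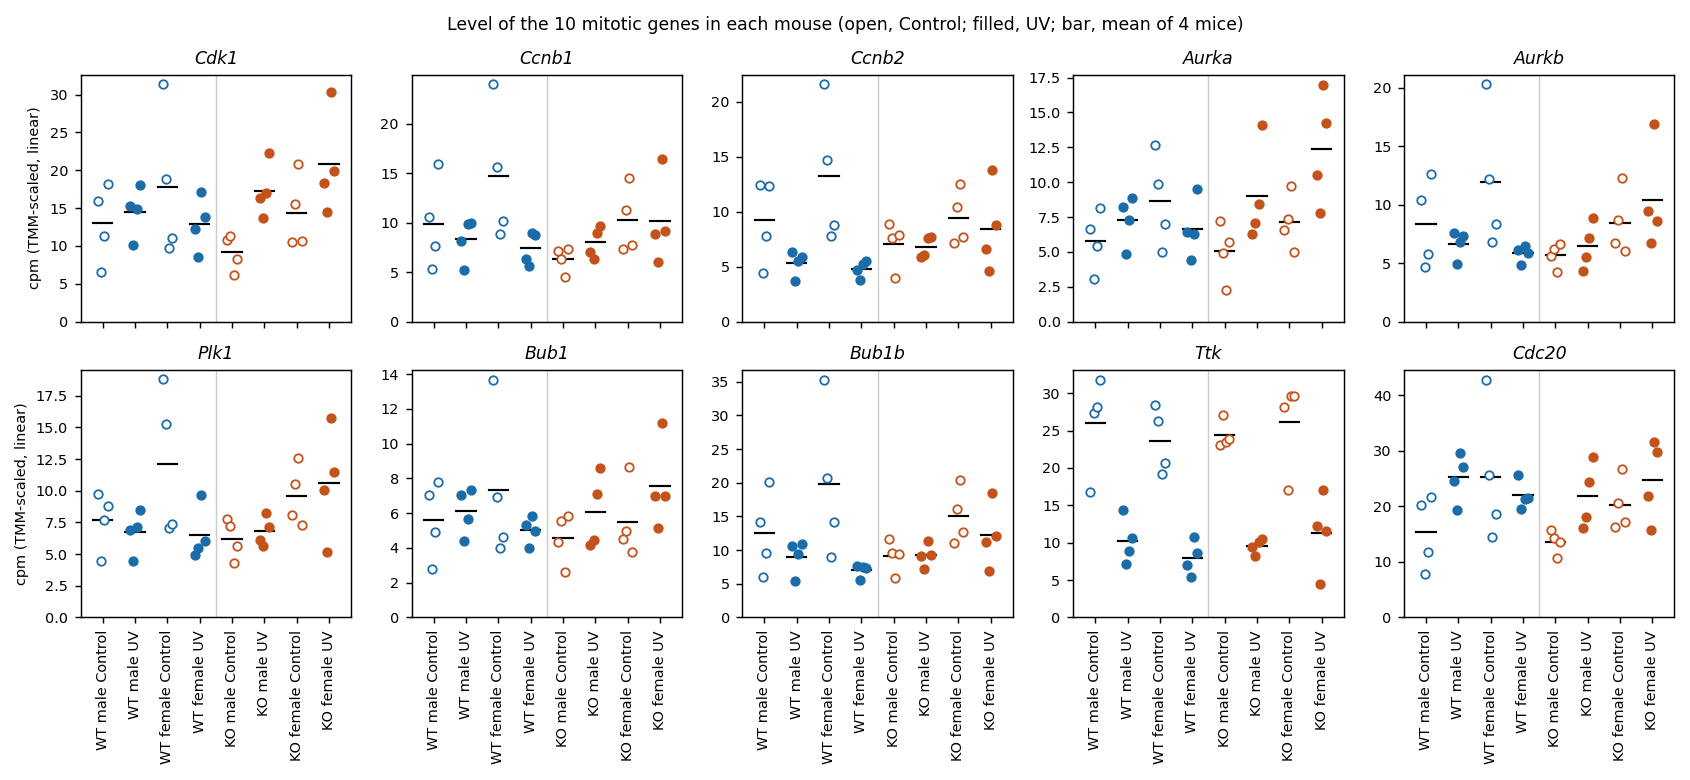
Level of each of the 10 genes in each mouse, in cpm after TMM scaling on a linear axis that starts at 0. WT mice are blue and KO mice orange, open points are Control and filled points UV, and bars are means of 4 mice. Ttk was lower after UV in every group pair, whereas the other 9 genes overlapped between exposures in at least 1 sex of each genotype.

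In WT mice, UV lowered part of the set. Of the 10 members, 6 fell (Ccnb1, Ccnb2, Aurkb, Plk1, Bub1b and Ttk) and none rose at an adjusted P under 0.05, over both sexes in edgeR's quasi-likelihood test. UV changed most of the transcriptome: 71% of the 15546 genes passed the same test, 34.5% higher and 36.5% lower, so that 6 of 10 lower stood against 36.5% of all genes lower, and 6 of 10 changed against 71% changed. The median log2 fold change of the members was -0.58 (-0.38 without WT female Control mouse 61F), and that of all genes tested was -0.01. Without that mouse, 3 of 10 members fell and 1 rose, near the share of all genes lower. With all mice in the fit, the kinase gene Cdk1, with Aurka, Bub1 and Cdc20, did not pass. In KO mice, Cdk1, Aurka and Cdc20 rose, Ttk fell and the other 6 did not pass, where 70.8% of all genes passed (37.3% higher, 33.5% lower). The median of the members in KO mice was 0.20, and that of all genes 0.09.

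Ttk, the checkpoint kinase MPS1, changed most and in both genotypes. In unexposed WT males it stood at 16.7, 27.4, 28.2 and 31.7 cpm, and after UV at 7.09, 8.86, 10.6 and 14.3 cpm. In WT females the values were 19.2, 20.7, 26.3 and 28.4 cpm without UV and 5.47, 7.02, 8.63 and 10.7 cpm after UV. Every exposed WT mouse lay below every unexposed WT mouse, which was true of 22.1% of all genes, and of no other member. In KO males, Ttk was 23.0, 23.5, 23.9 and 27.0 cpm without UV and 8.22, 9.40, 10.1 and 10.5 cpm after UV. In KO females it was 17.0, 28.2, 29.6 and 29.6 cpm without UV and 4.43, 11.5, 12.2 and 17.0 cpm after UV. The KO groups also did not overlap, but the lowest unexposed female (60F) and the highest exposed female (66F) were nearly level, and 16.5% of all genes had every exposed KO mouse lower. The fitted change was -1.46 ± 0.20 (log2, SE) in WT mice (edgeR adjusted P = 2.43e-07) and -1.28 ± 0.20 in KO mice (adjusted P = 1.86e-06). The difference between the genotypes was 0.18, with a 95% interval from -0.39 to 0.74.

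The cyclin B genes, whose products activate CDK1, fell in WT mice. Ccnb2 was 4.42, 7.77, 12.4 and 12.4 cpm in unexposed WT males and 3.67, 5.51, 5.86 and 6.37 cpm after UV. In WT females it was 7.78, 8.84, 14.7 and 21.6 cpm without UV and 3.77, 4.69, 5.26 and 5.49 cpm after UV. All exposed females lay below all unexposed females, as was true of 29.8% of all genes, while in males the lowest unexposed mouse (54M) lay among the exposed ones. The change was -1.12 ± 0.24 (edgeR adjusted P = 1.58e-04). Ccnb1 ranged from 5.38 to 24.0 cpm (median 10.4) in the 8 unexposed WT mice and from 5.24 to 10.0 cpm (median 8.45) in the 8 exposed ones, and its change was -0.62 ± 0.24 (adjusted P = 0.0213). In KO mice neither passed. Ccnb2 had a median of 7.79 cpm without UV and 7.13 cpm after UV, with a fitted change of -0.11 and a 95% interval from -0.60 to 0.38. Ccnb1 had medians of 7.34 and 8.94 cpm and a change of 0.16 (95% interval -0.32 to 0.65).

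Cdk1, the kinase that cyclin B activates, rose in KO mice. It was 6.20, 8.30, 10.8 and 11.3 cpm in unexposed KO males and 13.7, 16.4, 16.9 and 22.2 cpm after UV. In KO females it was 10.5, 10.7, 15.6 and 20.8 cpm without UV and 14.4, 18.4, 20.0 and 30.3 cpm after UV. The KO males did not overlap, as was true with UV higher for 26.6% of all genes, and the females did. The change was 0.72 ± 0.24 (edgeR adjusted P = 0.00846). In WT mice Cdk1 ranged from 6.52 to 31.4 cpm (median 13.6) without UV and from 8.51 to 18.0 cpm (median 14.3) after UV, with a change of -0.15 and a 95% interval from -0.63 to 0.34.

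Of the other kinases of mitotic entry and of the spindle, Aurka passed in KO mice only, and Aurkb and Plk1 in WT mice only. The difference between genotypes did not pass for any of them. Aurka, which acts at the spindle poles, ranged from 2.29 to 9.72 cpm (median 6.14) in unexposed KO mice and from 6.30 to 17.0 cpm (median 9.45) after UV, a rise of 0.81 ± 0.25 (edgeR adjusted P = 0.00501). In KO males it was 2.29, 4.96, 5.70 and 7.24 cpm without UV and 6.30, 7.11, 8.42 and 14.1 cpm after UV, and in KO females 4.97, 6.58, 7.39 and 9.72 cpm against 7.82, 10.5, 14.3 and 17.0 cpm. Both sexes overlapped, with 1 or 2 exposed mice inside the unexposed range. In WT mice its change was -0.02 (95% interval -0.53 to 0.49). Aurkb, the kinase of the chromosomal passenger complex, ranged from 4.64 to 20.3 cpm (median 9.38) in unexposed WT mice and from 4.89 to 7.60 cpm (median 6.30) after UV. It fell by 0.68 on the log2 scale (SE 0.23, edgeR adjusted P = 0.0117). The exposed WT females, at 4.89, 5.87, 6.11 and 6.49 cpm, all lay below the unexposed ones, at 6.78, 8.32, 12.2 and 20.3 cpm, while the WT males overlapped. In WT females 4 of 10 members were lower after UV without overlap, against 29.8% of all genes. Plk1 ranged from 4.42 to 18.8 cpm (median 8.26) without UV and from 4.44 to 9.63 cpm (median 6.47) after UV in WT mice, and fell by 0.54 (SE 0.23, adjusted P = 0.0389). In KO mice the change was 0.24 for Aurkb and 0.13 for Plk1, with 95% intervals of -0.24 to 0.72 and -0.34 to 0.61.

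Among the other checkpoint genes, Bub1b, which encodes the BUBR1 subunit of the complex that binds CDC20, fell in WT mice by 0.98 (SE 0.25, edgeR adjusted P = 0.00117). It was 9.0, 14.2, 20.7 and 35.2 cpm in unexposed WT females and 5.62, 7.39, 7.55 and 7.67 cpm after UV, with no overlap (as for 29.8% of all genes with UV lower). In WT males it was 5.93, 9.61, 14.2 and 20.2 cpm without UV and 5.34, 9.34, 10.5 and 10.9 cpm after UV, with overlap. Its change in KO mice was -0.14 (95% interval -0.66 to 0.37). Bub1, the kinase that recruits checkpoint proteins to kinetochores, did not pass in either genotype, with changes of -0.21 in WT mice and 0.44 in KO mice. Cdc20, the target that the checkpoint holds, rose in KO mice by 0.49 ± 0.21 (adjusted P = 0.0386), and its change in WT mice was 0.25 ± 0.21. In KO males Cdc20 was 10.7, 13.5, 14.4 and 15.8 cpm without UV and 16.2, 18.1, 24.3 and 28.9 cpm after UV, again with no overlap. In KO males 2 of 10 members were higher after UV without overlap, against 26.6% of all genes. In WT males Cdc20 was 7.81, 11.8, 20.3 and 21.7 cpm without UV and 19.4, 24.6, 27.1 and 29.7 cpm after UV. In WT females it was 14.4, 18.5, 25.7 and 42.8 cpm without UV and 19.5, 21.4, 21.5 and 25.7 cpm after UV, where the exposed mice lay inside the unexposed range.

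**Figure D2:**
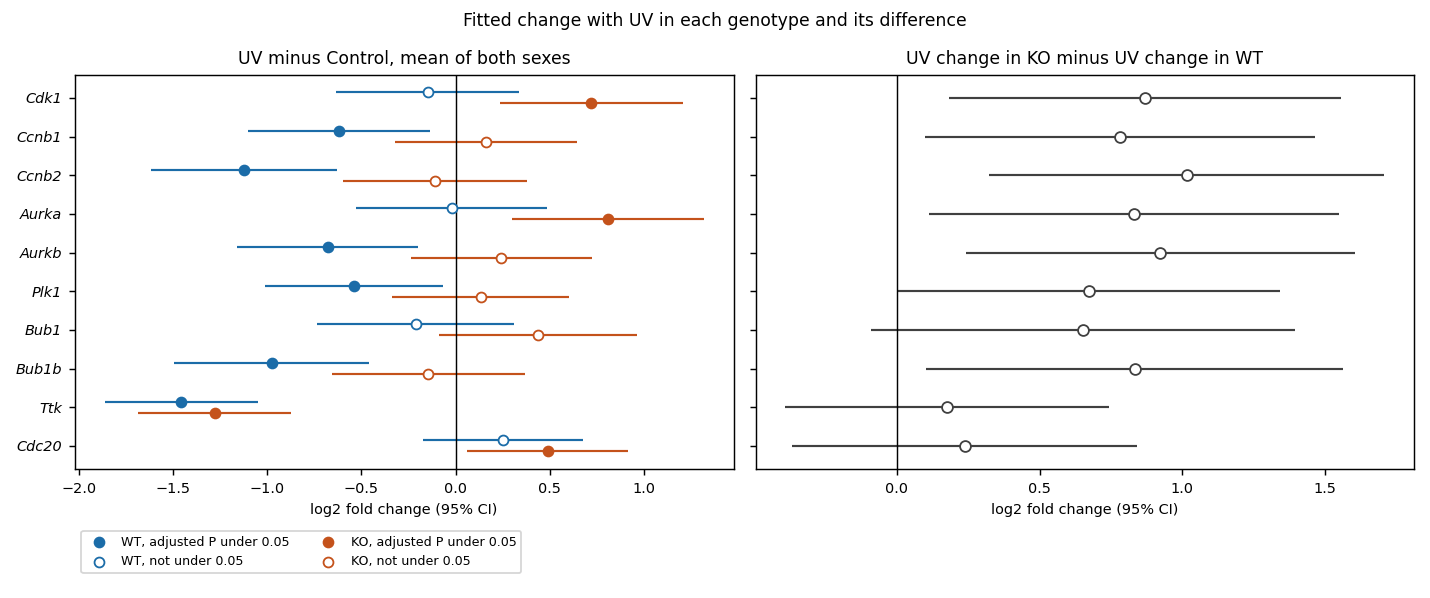
Fitted log2 fold change of each gene with its 95% confidence interval, for UV minus Control in WT (blue) and KO mice (orange) on the left and for the difference between those changes on the right. On the left, filled points passed an adjusted P of 0.05 in edgeR, and on the right all points are drawn open whatever their adjusted P. Ttk fell in both genotypes, and on the right all 10 estimates lie above 0 and none passed.

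Whether the response to UV differed between genotypes was asked of the difference itself. All 10 differences, KO minus WT, were positive, from 0.18 for Ttk to 1.02 for Ccnb2, with a median of 0.81 where that of all genes was 0.04. The median rests on genes that varied together between the same mice, so the 10 signs are not 10 separate observations. None passed an adjusted P under 0.05 in edgeR, DESeq2 or limma, and the smallest edgeR adjusted P was 0.115, for Ccnb2 (1.02 ± 0.34). Of all genes, 0.765% passed. At an unadjusted P under 0.05, 7 of the 10 members passed, all with the higher value in KO mice, against 19.6% of all genes (12.8% higher in KO mice). The 7 were Cdk1, Ccnb1, Ccnb2, Aurka, Aurkb, Plk1 and Bub1b. Leaving out each mouse in turn gave between 3 and 8 of 10 members at that unadjusted threshold, with 3 without WT female Control mouse 61F, KO female UV mouse 66F or KO male Control mouse 52M, and 4 without WT male UV mouse 38M or WT male Control mouse 69M. Adjusted P for Ccnb2 ranged from 0.0569 to 0.199 over all alternatives.

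The genotypes were also set side by side within each exposure. Without UV, the KO minus WT difference was negative for 9 of 10 members, from -0.58 for Ccnb1 to 0.02 for Ttk (median -0.38, against 0.00 for all genes). No member passed the adjusted threshold in edgeR, DESeq2 or limma, and 2 passed the unadjusted one, Ccnb1 and Aurkb. Of all genes, 0.206% passed the adjusted and 8.52% the unadjusted threshold. After UV, the difference was positive for 9 of 10 members (median 0.37, against 0.02 for all genes), up to 0.59 for Aurka. Again no member passed the adjusted threshold in edgeR, DESeq2 or limma, where 3.31% of all genes did, and 2 passed the unadjusted one, Ccnb2 and Aurka, where 20.1% of all genes did. Without 61F no member passed the unadjusted threshold in the unexposed comparison, and without 66F none did after UV. The comparison of UV responses and these differences use the same mice, so they are not separate evidence.

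The UV change was also tested within each sex, which sets 4 mice against 4. These contrasts came from the same fit of all groups, so the spread between mice was estimated from all of them. In WT females 6 members fell (Ccnb1, Ccnb2, Aurkb, Plk1, Bub1b and Ttk), where 61.3% of all genes passed and 31.1% fell. In WT males Ccnb2 and Ttk fell and Cdc20 rose (0.71 ± 0.30, edgeR adjusted P = 0.0398), where 60.9% of all genes passed. In KO males Cdk1, Aurka and Cdc20 rose and Ttk fell (61.7% of all genes passed), and in KO females only Ttk passed (60.7% of all genes passed), with Aurka at 0.79 ± 0.35 (edgeR adjusted P = 0.0529). The sex difference of the UV change in WT mice, female minus male, was negative for all 10 members (median -0.70, against 0.01 for all genes), from -1.02 for Bub1b to -0.23 for Ttk. None of the 10 passed the adjusted threshold in edgeR, DESeq2 or limma, where 0% of all genes passed in edgeR, and only Cdc20 passed the unadjusted one, where 2.7% of all genes did. In KO mice the median sex difference was -0.07, with 0 of 10 at either threshold and 9.53% of all genes at the unadjusted one. The difference between these sex differences was positive for all 10 (median 0.61), again with 0 of 10 at either threshold and 0% and 4.96% of all genes. The WT sex difference and this last difference both use the unexposed WT females, where 61F was highest for all 10 members. The 10 genes varied together between the same mice, so their signs are not 10 separate observations. With 1 mouse left out, the WT sex difference had 0 to 3 members at the unadjusted threshold.

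In WT females, 3 of the 6 falls depended on 1 unexposed mouse. Mouse 61F had the highest level of all 10 members in its group, for example 31.4 cpm of Cdk1 against 9.67 to 18.8 cpm in the other 3 mice, and 42.8 cpm of Cdc20 against 14.4 to 25.7 cpm. Without 61F, 3 of 10 members instead of 6 fell in WT females. With all mice in the fit, 31.1% of all genes fell in WT females and 36.5% over both sexes of WT mice. A count of 3 of 10 is thus near these shares. Over both sexes of WT mice without 61F, 3 fell (Ccnb2, Bub1b and Ttk) and Cdc20 rose (0.48, edgeR adjusted P = 0.0316, with adjusted P from 0.0316 to 0.543 over its alternatives). Ccnb1, Aurkb and Plk1 then had adjusted P values of 0.115, 0.0767 and 0.170. The change of Cdk1, Aurka and Bub1 moved from negative to 0.11, 0.14 and 0.07. For KO mice, leaving out 54F, the mouse with dermal markers and the lowest level of all 10 members in its group, kept 4 members past the threshold, 3 of them higher. The change of Ttk in KO mice was then -1.13 and that of Cdk1 was 0.81, in the place of -1.28 and 0.72.

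The spread between mice of a group was wide and shared by the members. The median coefficient of variation of the 10 members was 48.8% in unexposed WT females, 40.9% in unexposed WT males and 40.2% in exposed KO females, and between 19.4% and 27.6% in the other 5 groups. In all genes of at least 5 cpm it was between 9.48% and 14.1%. The largest ratio between mice of a group was 3.91, for Bub1b in unexposed WT females. The biological coefficient of variation fitted by edgeR was 27.5% for Ttk and between 29.3% and 35.9% for the other 9, where the median of all genes was 18.8%. Among all genes tested these values stood between percentile 64.4 (Ttk) and percentile 74.6 (Bub1), so many other genes varied as much or more. In WT mice the mean log2 cpm of the members was 3.49 ± 0.62 (SD, n = 8) without UV and 3.02 ± 0.30 after UV. In KO mice it was 3.21 ± 0.43 without UV and 3.34 ± 0.45 after UV. The exposed WT mice thus spanned 1.74-fold in this mean, and the unexposed WT mice 4.08-fold.

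The same mice were high or low for nearly the whole set. 61F, KO female Control mouse 62F and KO female UV mouse 66F were highest in their group for all 10 members. WT female Control mouse 71F, WT male UV mouse 38M and KO female UV mouse 54F were lowest for all 10. For 9 members, the deviation of a mouse from its group mean (log2 cpm, 32 mice) had Pearson's r between 0.89 and 0.97 with the mean deviation of the others. Ttk was the exception at 0.48 (Spearman's rho 0.49, and r of 0.53 without the 2 mice farthest from the median). Pairs of members without Ttk had r between 0.78 and 0.96 (36 pairs, median 0.90), and pairs with Ttk between 0.35 and 0.55 (9 pairs, median 0.45). WT male Control mouse 54M, lowest for the other 9 members, had 27.4 cpm of Ttk, above 43M at 16.7 cpm, which was among the higher mice of that group for several other members. These correlations describe libraries that share depth, tissue preparation and scaling.

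**Figure D3:**
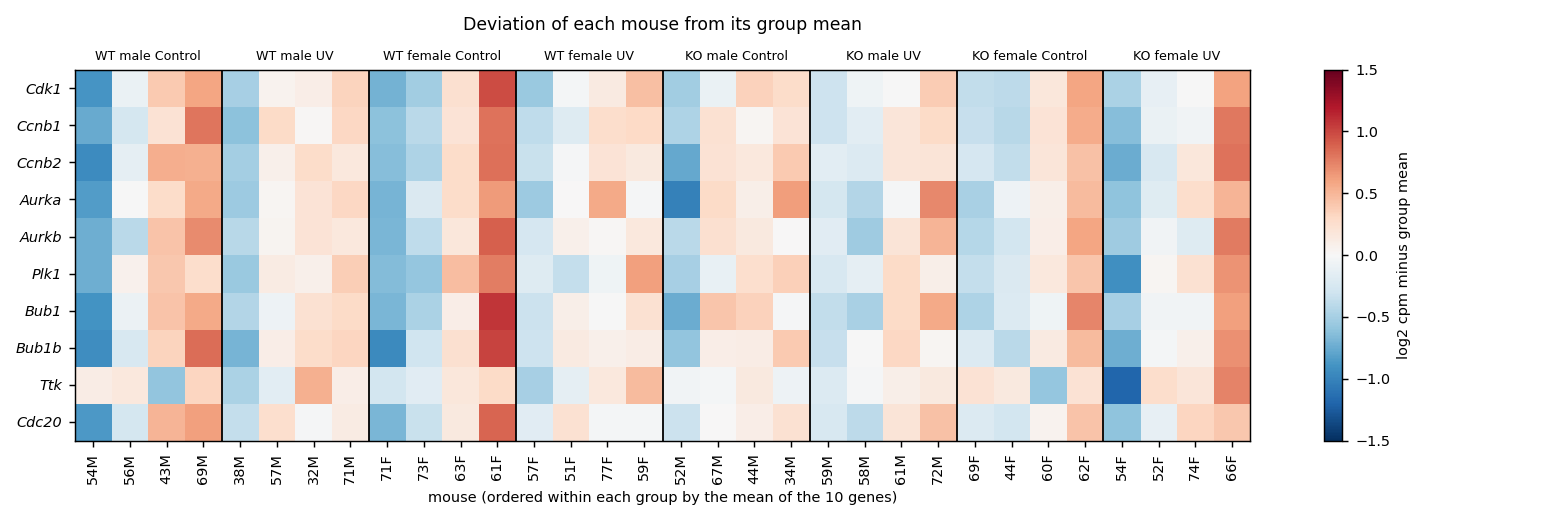
Deviation of each mouse (columns, ordered within each group by the mean of the 10 genes) from the mean of its group (log2 cpm), for the 10 genes (rows). Red is above and blue below the group mean, on a scale from -1.5 to 1.5. Columns are mostly of 1 colour, and Ttk departs from the others in 54M, 43M and 60F.

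Genes outside the lists that varied most like the members were, by the same correlation with their mean deviation among 9962 genes of at least 5 cpm, Cdca3 (r = 0.96), Brca1, Cep55, Knstrn, Tubb5, Spag5, Nsd2, Mcm10 and Uhrf1 (0.93). The most opposed were Cipc (-0.82), Slc6a8, Ano9, Brap and Pla2g16 (-0.77). In all, 19 genes exceeded 0.9. Of 13 lists of cell markers, the summed level of the 6 basal keratinocyte genes (Krt5, Krt14, Krt15, Col17a1, Itga6 and Itgb4) had the highest correlation with the members, at r = 0.78 (rho 0.73). Sebaceous gland markers followed at 0.59 and Langerhans and antigen-presenting cell markers at 0.54, and red blood cell markers were at -0.52. In 61F, basal markers summed to 16099 cpm, the second highest of the 16 unexposed mice, whose others ranged from 5321 to 16276 cpm. The same mouse ranked first of the 16 for sebaceous gland markers (167 cpm against at most 146, 4 of 5 markers tested), Langerhans and antigen-presenting cell markers (898 against at most 861, 5 of 5) and adipocyte markers (13.4 against at most 13.3, 2 of 4). The TMM scaling factor of a library had r of 0.50 (rho 0.57, and r of 0.64 without the 2 mice farthest from the median), the share of reads outside genes -0.46, and the depth of a library 0.20. The labels and the methods of the study differ in the range of RNA quality numbers they give, and no value per mouse was at hand. The part of cell make-up and of library quality in the spread was not tested.

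Lists of related genes, grouped by stage, were read by their counts and medians in the same comparisons. The counts of each list stand against the shares of all genes. In WT mice 36.5% of all genes fell and 34.5% rose, and in KO mice 33.5% fell and 37.3% rose. Of 20 other spindle and cytokinesis genes, 15 fell and none rose in WT mice (median -0.81, against -0.01 for all genes), and 4 fell (Kif23, Kif4, Nusap1 and Ckap2l) and 1 rose in KO mice (median -0.08, against 0.09 for all genes). Without 61F, 12 of the 20 fell in WT mice. Nusap1, a microtubule-bundling protein, fell by 1.62 in WT mice (SE 0.24, edgeR adjusted P = 9.31e-07) and by 0.88 in KO mice, and the kinesin Kif4 by 1.55 and 1.12. Of the same list, Kif18b and Ckap2 had the largest estimates in WT mice, at 0.36 and -0.32, and neither passed, while Kif18b rose in KO mice by 0.97 ± 0.24. Of 14 kinetochore and condensin genes, 9 fell and 1 rose in WT mice, and 1 fell and 4 rose in KO mice (Spc24, Spc25, Smc2 and Ncaph). Without 61F, 3 instead of 9 fell in WT mice. The centromere protein gene Cenpf fell by 1.68 in WT and 0.89 in KO mice, and Mki67, the proliferation marker, by 1.15 in WT mice, while the NDC80 subunit gene Spc24 rose by 0.50 ± 0.22 in WT and 1.69 ± 0.22 in KO mice. Spc25, another subunit of that complex, had 0.11 in WT mice without passing and rose by 0.72 in KO mice.

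Of 14 other mitotic entry genes, 8 fell and 2 rose in WT mice, and none fell and 5 rose in KO mice (Ccnf, Cdc25a, Pkmyt1, Cks1b and Gtse1). Without 61F, 6 instead of 8 fell and 3 rose in WT mice. Cdc25c, the phosphatase that activates CDK1, fell in WT mice by 1.37 (SE 0.29, edgeR adjusted P = 1.17e-04), and Cdkn3, a phosphatase of cyclin-dependent kinases, fell by 1.07. Both were low, with means over all mice of 2.92 cpm for Cdc25c and 1.59 cpm for Cdkn3. Gtse1, a p53 target that restrains p53, rose by 2.42 in WT and 2.60 in KO mice, and Cks1b, a binding partner of cyclin-dependent kinases, by 0.72 and 1.49. In this list Wee1, the kinase that holds CDK1 inactive, was the only gene of all lists whose UV change differed between genotypes at an adjusted P under 0.05. Of all genes, 0.765% passed that test, so a single call over all lists does not stand above the share of all genes. The values of Wee1 were as follows. It fell in WT mice (-1.0 ± 0.20), had a change of 0.12 ± 0.19 in KO mice, and the difference was 1.12 ± 0.27 (edgeR adjusted P = 0.0471). That call held in 8 of the 32 fits that left out 1 mouse, with adjusted P from 0.0151 to 0.107, the highest without 61F.

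Of 10 other spindle checkpoint genes, 3 fell (Mad1l1, Kntc1 and Knl1) and 4 rose (Bub3, Zw10, Mad2l1bp and Trip13) in WT mice, and 1 fell and 7 rose in KO mice. Mad1l1, which anchors MAD2 at kinetochores, fell in both (-1.19 and -1.02), Knl1, the kinetochore scaffold, fell in WT mice by 0.95, and Mad2l1bp and Trip13, which take the checkpoint complex apart, rose in both (1.23 and 0.80 in WT mice, 0.99 and 1.49 in KO mice). Of 10 passenger complex and other mitotic kinase genes, 4 fell (Incenp, Cdca8, Cit and Sgo1) and none rose in WT mice, and 1 fell and 1 rose in KO mice. Cdca8, the borealin subunit, fell in both (-0.80 and -0.46), and Sgo1, the protector of centromeric cohesion, fell in WT mice by 0.73, while Birc5 (survivin) and Haspin did not pass in WT mice (0.20 and 0.19). Birc5 rose in KO mice by 0.88 ± 0.20. Of 16 APC/C and mitotic exit genes, 6 fell and 5 rose (Ube2s, Anapc7, Cdc16, Cdc23 and Cdc27) in WT mice, and 4 fell (Fzr1, Espl1, Anapc1 and Anapc5) and 6 rose in KO mice. In WT mice, where 36.5% of all genes fell and 34.5% rose, the counts of the checkpoint and APC/C lists were near those shares. The falls of the passenger list were near that share too. Espl1, the protease separase, fell in both (-2.14 and -1.78), Fbxo5, an inhibitor of APC/C, fell in WT mice by 1.14, and the APC/C subunit gene Anapc7 and the ubiquitin-conjugating enzyme gene Ube2s rose in both (1.31 and 0.88 in WT mice, 1.26 and 1.30 in KO mice).

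Of 16 MuvB, FOXM1 and DREAM regulators, 6 fell and 4 rose (E2f4, E2f5, Tfdp1 and Nfya) in WT mice, and 3 fell (Lin52, Rbl2 and Tfdp2) and 6 rose in KO mice. The falls of this list in WT mice were near the 36.5% of all genes that fell. The estimates in WT mice were lowest for Tfdp2 (-2.84) and Rbl2 (-1.70) and highest for Nfya (0.85) and E2f5 (0.50), and these 4 passed in both genotypes. Foxm1, an activator of late cell cycle genes, fell in WT mice (-0.86 ± 0.21, edgeR adjusted P = 8.06e-04) and was -0.21 ± 0.21 in KO mice. Of 15 S-phase genes, 8 rose and 2 (Mcm6 and Cdc6) fell in WT mice (median 0.37), and 11 rose and 1 fell in KO mice (median 0.88). The licensing factor gene Cdt1 rose by 1.36 and 1.95, and the ribonucleotide reductase gene Rrm2 by 1.23 and 1.52. Cdc6, the partner of CDT1 in licensing, fell by 0.65 and 0.33, and Gins1 did not pass in either genotype. Of 10 p53 pathway genes, 9 rose in each genotype, among them Ccng1 by 3.05 and 3.10 and Cdkn1a by 2.24 and 2.32, and the lowest 2 in WT mice were Gadd45a (-0.01, not passing) and Zmat3, which rose by 0.48. Gadd45a fell in KO mice by 0.73. In the test of the difference between genotypes, all 20 spindle, all 14 kinetochore, all 14 other entry and all 15 S-phase estimates were positive, as were all 10 of the passenger list, 11 of 16 of the APC/C list, 11 of 16 of the regulators, 8 of 10 of the other checkpoint genes and 5 of 10 of the p53 pathway, and no gene of these lists but Wee1 passed the adjusted threshold. Without 61F the estimates were positive for 20 of 20 spindle, 14 of 14 kinetochore, 13 of 14 other entry and 15 of 15 S-phase genes, and none passed. The estimates of all lists use the same mice, so their signs are not separate observations. The median of all genes in that test was 0.04.

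**Figure D4:**
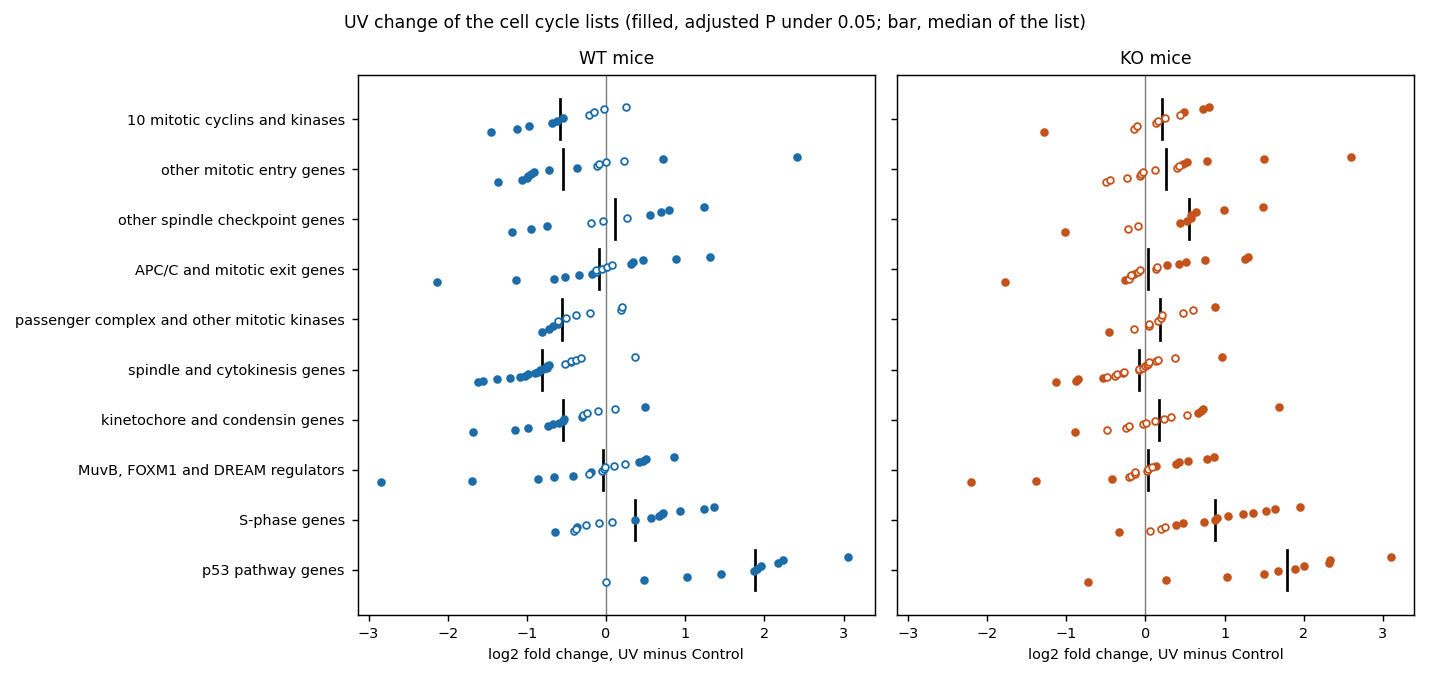
Log2 fold change with UV of each gene of the 10 lists (points, filled where the edgeR adjusted P was under 0.05) in WT mice (left) and KO mice (right), with the median of each list as a bar. The medians of the members and of the entry, passenger, spindle and kinetochore lists lie between -0.81 and -0.54 in WT mice (between -0.56 and -0.28 without 61F) and between -0.08 and 0.26 in KO mice, and S-phase and p53 pathway genes lie mostly to the right in both.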

How the data were processed

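RNA sequencing covered the epidermis of 32 mice. The deposited values were whole read counts per Ensembl mouse gene, without normalization or filtering. Per the paper and the submitters' processing notes, the authors trimmed single-end reads with Cutadapt 1.8, removed ribosomal RNA reads, aligned the remainder with STAR 2.5.3a and counted them with HTSeq 0.9.1. The notes name GRCm38, whereas the paper writes a human build name, and the strand setting is not given in the sources used here. Reads without a gene (6.80 to 9.75% per mouse) stayed out of library sizes. Symbols, positions and exon lengths came from GENCODE M21 and promoters from RefSeq GRCm38.p6.

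Genes with 1 cpm or more in at least 1 mouse were kept and scaled by TMM. A mean for each of the 8 groups was fitted to the counts with edgeR 4.0.16 (quasi-likelihood), and P values were adjusted over all 15546 genes of a contrast by the Benjamini-Hochberg method. The study itself used limma-trend, which was run as an alternative. Contrasts over both sexes weighted the sexes equally. Log2 cpm used a prior count of 1. Genes were named if they were members, if they had the 2 largest or 2 smallest estimates of a list in WT mice, if few genes of a list passed, or if they had the 10 highest or 5 lowest correlations with the members, of which 1 is not reported here. Foxm1 was added after its values were seen, as were the removals of mice for the lists. The members and lists were chosen with earlier results of these data known. Each mouse was a separate animal, and the reads carry no molecular identifiers, so the number of reads sets counting error only. The alternatives were RLE scaling, DESeq2 1.42.0, limma 3.58.1 (limma-trend), edgeR's filterByExpr, no filter, fits of WT and KO mice apart or of the sexes apart, and the removal of each of the 32 mice in turn. R 4.3.3 was used.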

Additional observations from a re-analysis of the deposited data

Results flagged for a closer look

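Among the 88 combinations of gene and group of 4 mice (the 10 members and Ppard in 8 groups), 3 had a mouse whose gap to the nearest other was larger than the Dixon test at the 95% level allows, where chance flags about 1 in 20. Bub1b was 5.62 cpm in WT female UV mouse 57F, against 7.39 to 7.67 cpm in the other 3 mice. Ttk was 17.0 cpm in KO female Control mouse 60F, against 28.2 to 29.6 cpm in the others, while the other 9 members of that mouse lay within the range of their group. Ppard was 175 cpm in KO female UV mouse 54F, against 228 to 239 cpm in the others. That mouse also had the dermal markers given above.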

How the results depend on the processing

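Of 1874 values of a single member under an alternative, 1815 kept their direction and their side of the adjusted threshold. The total includes the comparisons of KO with WT mice (UV response, without UV and after UV). In these no member passed in the main fit or under any alternative, so their values had no call to lose. In WT mice, the falls of Ccnb2, Bub1b and Ttk held in all 38 alternatives, that of Aurkb in all but the one without 61F (adjusted P = 0.0767), and that of Ccnb1 in all but 4 removals (38M, 57F, 61F and 69M, adjusted P up to 0.115). The fall of Plk1 was lost in 15 of 38, among them limma-trend (adjusted P = 0.0636). In KO mice, Cdk1, Aurka and Ttk held in all 38, and the rise of Cdc20 was lost in 10 (adjusted P up to 0.108).

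The count of members passing in WT mice was between 4 and 6 over the removals. It moved from 3 to 1 in WT males with no filter or with WT and KO mice fitted apart, from 4 to 2 in KO males with no filter, and from 1 to 2 in KO females with DESeq2. With 1 mouse left out it was 1 to 3 in WT males (1 without 57M or 71M), 3 to 6 in WT females (3 without 61F), 1 to 4 in KO males (1 without 52M or 72M, 2 without 44M or 61M) and 1 to 2 in KO females (2 without 54F, 54M, 61F, 62F, 71F or 72M). The change of Aurka in WT mice turned to 0.0094 with RLE, 0.0094 with DESeq2 and 0.021 with limma-trend. With 1 mouse left out, these estimates crossed 0: with UV in WT mice, Cdk1 (-0.26 to 0.11), Aurka (-0.13 to 0.14) and Bub1 (-0.32 to 0.074), with UV in KO mice, Ccnb1 (-0.012 to 0.29) and Ccnb2 (-0.28 to 0.0088), in KO minus WT without UV, Ttk (-0.056 to 0.11), and in KO minus WT after UV, Cdc20 (-0.11 to 0.051). For these changes the cause was not tested.

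Over all genes, the 119 whose UV change differed between genotypes became 841 with DESeq2 and 55 with no filter, and the 514 that differed between genotypes after UV became 1116 with DESeq2, 260 with limma-trend and 263 with no filter. The 32 that differed without UV became 78 with DESeq2, and the 0 for sex by UV became 3 in WT and 35 in KO mice and the 0 for the difference of sex by UV between genotypes became 6 with DESeq2. With 1 mouse left out, these counts ran from 56 to 346, 133 to 983 and 20 to 45. No paired analysis was possible because each label (number and sex letter) names a single animal, and groups of the same sex share no number. A number that recurs belongs to a male and a female.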
